A study of Macaca mulatta with 30 samples.

Results

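The 8 genes described here, PCK1, PCK2, FBP1, G6PC, PC, PKLR, GYS2 and SLC2A2, encode enzymes and a transporter through which the liver makes, stores and releases glucose. They were taken as a named list, chosen with earlier results of these data known, and all 8 were found among the 21292 genes of the deposited table. Expression was measured by RNA sequencing in liver, pancreas and the parotid, submandibular and sublingual salivary glands of 6 rhesus macaques (Macaca mulatta), of which 4 were female and 2 male. Each animal gave 1 flash-frozen piece per tissue, so there were 30 libraries, and each tissue had 6 replicates matched by animal. No treatment, genotype or age is named in the labels. Values are TPM, a gene's share of the transcripts in a library after scaling to transcript length, so that levels of different genes can be compared.

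Gluconeogenesis rebuilds glucose from lactate, amino acids and glycerol. Most of its steps are glycolysis run backwards, but the irreversible steps need enzymes of their own. Pyruvate carboxylase (PC) and phosphoenolpyruvate carboxykinase (PCK1 in the cytosol, PCK2 in mitochondria) bypass pyruvate kinase, fructose-1,6-bisphosphatase (FBP1) bypasses phosphofructokinase, and glucose-6-phosphatase (G6PC) frees glucose for export. PKLR encodes the liver and red cell pyruvate kinase, GYS2 the liver glycogen synthase, and SLC2A2 the glucose transporter GLUT2, which lets glucose cross the hepatocyte membrane in either direction. The liver is the main site of this pathway. Insulin lowers PCK1 and G6PC transcripts in liver, and glucagon raises them.

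The liver label was checked with 15 hepatocyte genes, whose summed level was 97484 to 149507 TPM in the 6 livers and 490 to 5198 TPM in the other 24 libraries. Some of those 24 stood apart from their tissue. In the pancreas of animal 4 the summed level of 13 acinar genes was 4351 TPM, against 192275 to 390514 TPM in the other 5, and in the submandibular gland of animal 4 that of 10 salivary genes was 2299 TPM, against 225657 to 340171 TPM. Both were high in 9 adipocyte markers, at 19864 and 9395 TPM. In the parotid of animal 6 the sum of 9 skeletal muscle markers was 101890 TPM, against 59.7 to 7862 TPM in the other 5, and in the sublingual gland of animal 4 the salivary sum was 5515 TPM, against 38099 to 369846 TPM. The 10 most abundant genes took 11.1 to 81.4% of a library.

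All 8 genes were higher in liver than in each of the other 4 tissues (limma, adjusted p below 0.05). Across all 13550 genes tested, liver was called higher for 23.6% and lower for 6.76% against pancreas, 53.4% and 4.61% against parotid, 45.1% and 5.68% against submandibular gland, and 18.7% and 12.8% against sublingual gland. Of all genes tested, 15.5% were called higher against all 4. PKLR, GYS2 and SLC2A2 passed the filter on low values (at least 1 TPM in at least 6 libraries) through the livers alone, so a difference was bound to appear for those 3. The median log2 difference of the 8 genes was 4.80 against pancreas, 5.51 against parotid, 5.43 against submandibular gland and 4.95 against sublingual gland, where the medians of all genes tested were 0.36, 0.84, 0.70 and 0.10. With trimmed-mean scaling, which brings these medians to between -0.01 and 0.04, the 8 genes were still called higher in all 4 comparisons. The shares of all genes called higher and lower were then 21.6% and 15.2% against pancreas, 23.5% and 20% against parotid, 25.9% and 20.8% against submandibular gland, and 23.7% and 20.4% against sublingual gland. In 30 of the 32 pairings of a gene with a comparison, every liver library lay above every library of the other tissue. The share of all genes with such a separation was 11.3% against pancreas, 36.7% against parotid, 11.6% against submandibular gland and 12.6% against sublingual gland. The pairings that overlapped were PC against pancreas and PC against submandibular gland. In these bulk samples, fewer cells of a type and less RNA per cell cannot be told apart.

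**Figure D1:**
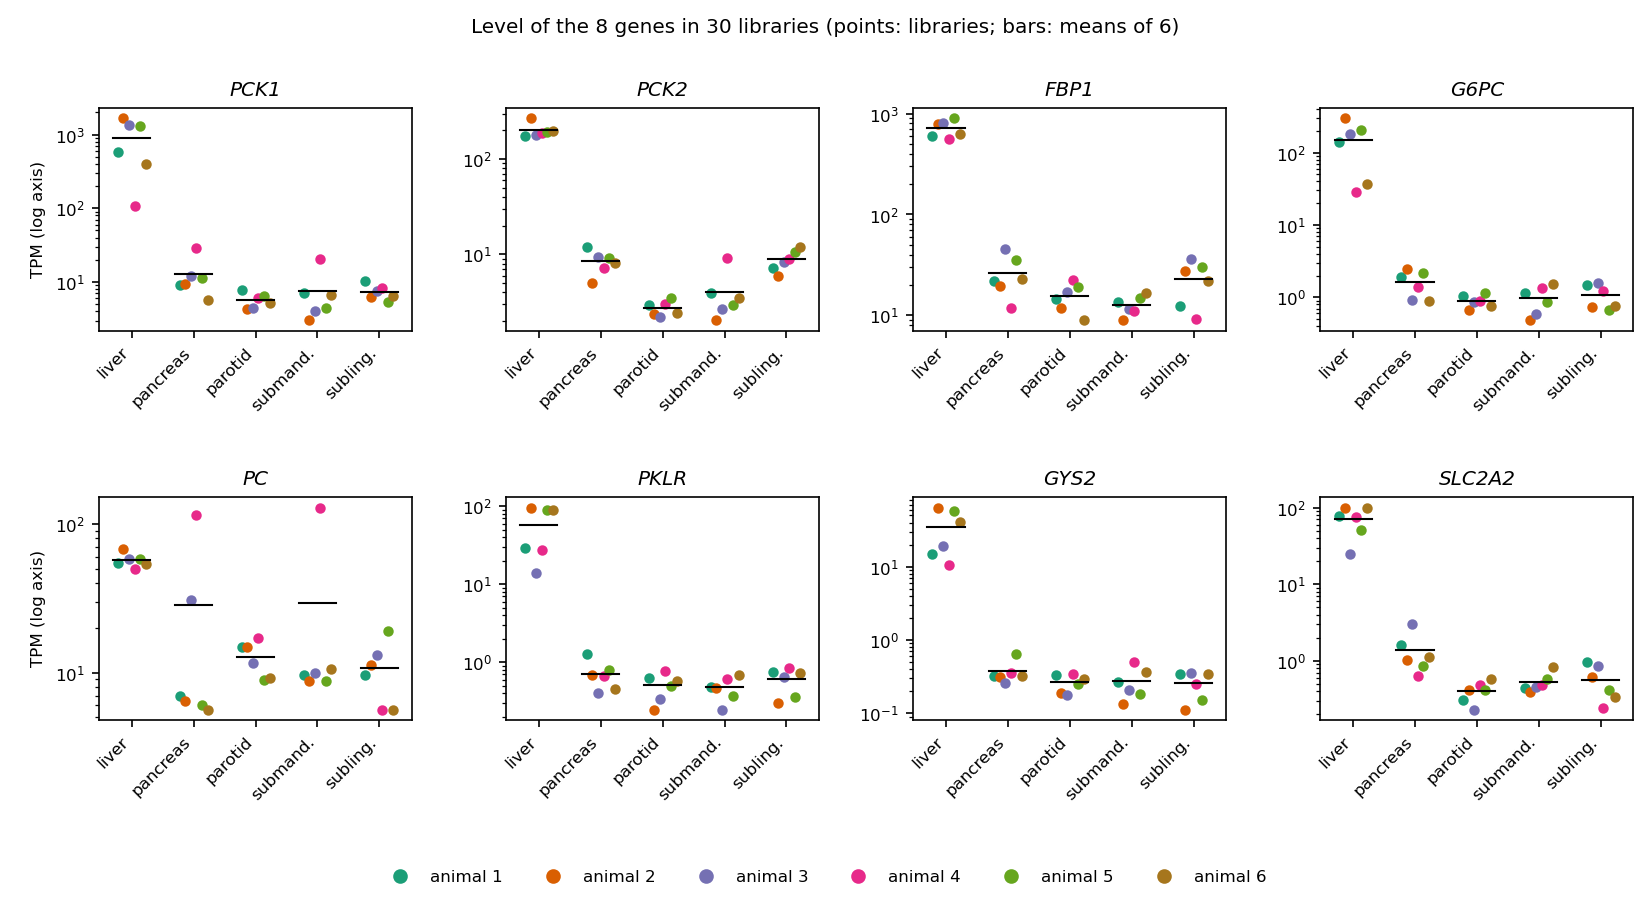
TPM (log axis) of the 8 genes in each library, by tissue, with 1 point per library, coloured by animal, and bars at the means of 6. The livers form a separate upper group for 7 genes, and for PC the pancreas and submandibular libraries of animal 4 lie above the livers.

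PCK1 catalyses the first committed step specific to gluconeogenesis in the cytosol. Over the livers its transcript had the highest mean and median level of the 8 and also the widest range between animals. PCK1 ran from 107 TPM to 1673 TPM over the 6 livers, with a median of 932 TPM. In pancreas it ran from 5.71 to 29.2 TPM (median 10.3), from 4.25 to 7.88 TPM in parotid (median 5.60), in submandibular gland from 3.01 to 20.7 TPM (median 5.53) and in sublingual gland from 5.42 to 10.2 TPM (median 6.997). The lowest liver, that of animal 4, was still above the highest other library, which was the pancreas of the same animal. The log2 differences on the scale of TPM + 1 were 5.72 against pancreas, 6.62 against parotid, 6.48 against submandibular gland and 6.30 against sublingual gland (SE 0.51, n = 6 per tissue, limma adjusted p = 6.90e-10, 2.76e-11, 4.60e-11 and 8.92e-11). PCK1 was higher in liver in 6 of 6 animals in each comparison.

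G6PC, the last step, which releases free glucose, followed the same pattern at a lower level. It ran from 28.5 to 300.2 TPM over the livers (median 161) and did not exceed 2.48 TPM in any of the other 24 libraries. Its means were 149 ± 104 TPM in liver (SD, n = 6), 1.63 ± 0.66 TPM in pancreas and 0.888 to 1.08 TPM in the glands. The log2 differences were 5.43, 5.88, 5.82 and 5.75 against pancreas, parotid, submandibular and sublingual gland (SE 0.38, limma adjusted p = 5.31e-12, 7.99e-13, 9.97e-13 and 1.36e-12). The livers of animals 4 and 6 were the low ones for G6PC, at 28.5 and 37.2 TPM, and for PCK1, at 107 and 401 TPM.

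FBP1, the bypass of phosphofructokinase, had a lower mean than PCK1 over the livers but was much steadier. It exceeded PCK1 in the livers of animals 1, 4 and 6 (602 against 573 TPM, 558 against 107 TPM and 635 against 401 TPM). It lay between 558 and 904 TPM in the 6 livers (median 710), between 11.8 and 45.5 TPM in pancreas (median 22.3), between 8.87 and 22.3 TPM in parotid, between 9.02 and 16.7 TPM in submandibular gland and between 9.17 and 36.1 TPM in sublingual gland. No liver came near any other library. The log2 differences were 4.82, 5.47, 5.72 and 5.03 (SE 0.29, limma adjusted p = 1.84e-13, 9.70e-15, 3.84e-15 and 6.71e-14). FBP1 was listed above 1 TPM in all 30 libraries.

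PCK2, the mitochondrial carboxykinase, was also steady in liver, at 173 to 269 TPM (median 190), the highest value being that of animal 2. Outside liver it ran from 5.01 to 12.05 TPM in pancreas, from 5.94 to 11.9 TPM in sublingual gland, from 2.03 to 9.25 TPM in submandibular gland and from 2.21 to 3.45 TPM in parotid. The log2 differences of liver against pancreas, parotid, submandibular and sublingual gland were 4.42, 5.74, 5.42 and 4.36 (SE 0.26, limma adjusted p = 9.81e-14, 2.67e-16, 9.96e-16 and 1.19e-13). PCK1 exceeded PCK2 in 5 of 6 livers, the exception being animal 4, where PCK1 was at 107 TPM and PCK2 at 189 TPM. In parotid and submandibular gland PCK1 exceeded PCK2 in 6 of 6 animals, and in sublingual gland in 2 of 6. As a share of its liver mean, PCK1 in the glands stood close to the hepatocyte genes, as described further on, and PCK2 above them. The order in the glands is thus not read as a preference for either gene.

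PC, which makes oxaloacetate from pyruvate in mitochondria and also serves fat synthesis, differed least between liver and the other tissues. It was nearly constant over the livers, at 49.9 to 68.1 TPM (median 56.2). In pancreas it ran from 5.61 to 115 TPM (median 6.67), in submandibular gland from 8.74 to 129 TPM (median 9.80), in parotid from 8.95 to 17.1 TPM (median 13.2) and in sublingual gland from 5.61 to 19.0 TPM (median 10.5). The high values in pancreas and submandibular gland were those of animal 4, and they exceeded all 6 livers. The log2 differences were 1.98, 2.11, 1.85 and 2.41 against pancreas, parotid, submandibular and sublingual gland (SE 0.53, limma adjusted p = 0.00536, 0.00173, 0.00556 and 0.000745). Exact sign-flip tests of PC over the 6 animals gave p = 0.09375 against pancreas and 0.0625 against submandibular gland, which do not pass, and p = 0.03125 against each of the other two, the smallest value 6 animals allow. Without animal 4 the log2 differences were 2.61, 2.23, 2.49 and 2.31, each higher in 5 of 5 animals. With scaling by trimmed-mean factors PC stayed called in all 4 comparisons, at 1.56, 0.94, 0.90 and 2.23. With quantile normalisation the differences from parotid and submandibular gland were 0.54 and 0.48 and did not pass (limma adjusted p = 0.184 and 0.229).

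The glycolytic counterpart PKLR ran from 13.9 to 96.3 TPM over the livers (median 58.7), with animal 3 lowest and animals 2, 5 and 6 at 88.5 to 96.3 TPM. In the other 24 libraries it lay between 0.246 and 1.28 TPM. GYS2 ran from 10.4 to 63.9 TPM over the livers (median 29.7) and from 0.111 to 0.648 TPM elsewhere, so that no library outside liver reached 1 TPM. The liver values of both genes were far above all others and spread widely among themselves. The log2 differences of PKLR lay between 4.78 and 4.98 (SE 0.32) and those of GYS2 between 4.40 and 4.53 (SE 0.29). Both genes passed the filter through the livers alone, so no p-value is given for them.

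SLC2A2 ran from 25.1 to 100.01 TPM over the livers (median 75.9), with animal 3 lowest. In pancreas it ran from 0.626 to 2.99 TPM (median 1.07), and in the 3 glands from 0.229 to 0.965 TPM. The log2 differences were 4.87 against pancreas, 5.56 against parotid, 5.44 against submandibular gland and 5.41 against sublingual gland (SE 0.27). SLC2A2 too passed the filter through the livers alone, so no p-value is given for these differences. GLUT2 is the glucose transporter of hepatocytes and is also known from pancreatic beta cells, and pancreas was the tissue with its next highest mean.

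**Figure D2:**
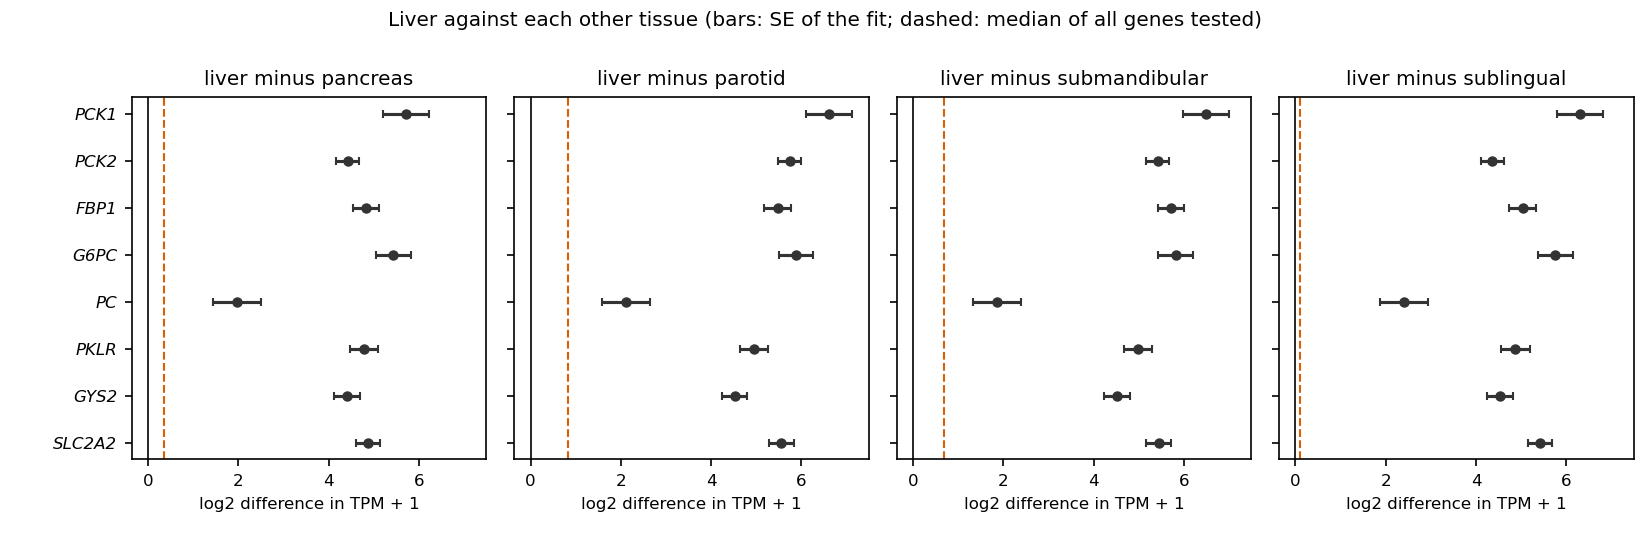
Difference in log2(TPM + 1) between liver and each other tissue for the 8 genes, with points at the estimate, bars of 1 SE, and a dashed line at the median of all 13550 genes tested. PC stands at 1.85 to 2.41, and the other 7 at 4.36 to 6.62.

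The traces of these genes outside liver were set beside those of the 15 hepatocyte markers, measured in the same way as a share of the mean liver level. In parotid the markers stood at 0.405 to 0.836% of their liver mean (median 0.612%), in submandibular gland at 0.425 to 0.838% (median 0.646%) and in sublingual gland at 0.617 to 0.939% (median 0.765%). G6PC stood at 0.596, 0.667 and 0.723% of its liver mean in these glands, GYS2 at 0.767, 0.795 and 0.752%, and SLC2A2 at 0.569, 0.739 and 0.799%, all within the range of the markers. PCK1 lay within that range in parotid (0.631%) and sublingual gland (0.814%) and just above it in submandibular gland (0.848%, and 0.558% without animal 4, inside the 0.400 to 0.788% of the markers in the same 5 libraries), and PKLR was within it in submandibular gland (0.830%) and above it in parotid (0.893%) and sublingual gland (1.05%). For these 5 genes the share in a gland was thus close to that of the hepatocyte markers. The source of these traces was not tested.

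PCK2, FBP1 and PC lay above all 15 hepatocyte markers in every gland. PCK2 stood at 1.37, 2.04 and 4.43% of its liver mean in the parotid, submandibular and sublingual glands, FBP1 at 2.17, 1.77 and 3.19%, and PC at 22.3, 51.6 and 18.8%. Without animal 4 the share of PC in submandibular gland was 16.7%, and that of PCK2 was 1.51%. In pancreas 14 of the 15 markers stood at 0.714 to 1.16%, and the remaining one, TTR (transthyretin, also made in islets), at 11.8%. There G6PC (1.10%) and GYS2 (1.08%) lay among the 14, PKLR (1.24%), PCK1 (1.42%) and SLC2A2 (1.91%) above them, and FBP1 (3.65%), PCK2 (4.26%) and PC (49.8%) higher still. Without the pancreas of animal 4 the share of PC was 19.5% and that of PCK1 was 1.05%, inside the 0.697 to 1.17% of the 14 markers. These shares without animal 4 were chosen after seeing the data.

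**Figure D3:**
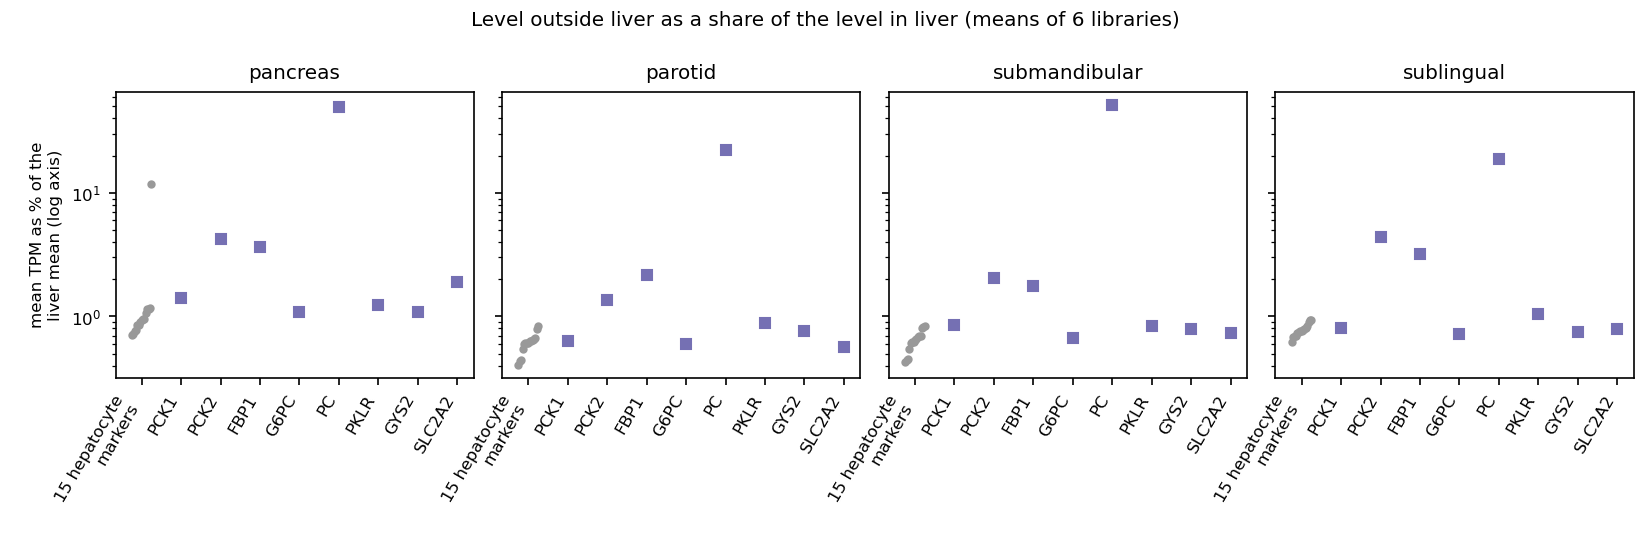
Mean TPM in each tissue other than liver as a percentage of the mean in liver (log axis), for the 15 hepatocyte markers (grey) and the 8 genes (squares). G6PC, GYS2 and SLC2A2 lie among the markers in the 3 glands, and PCK2, FBP1 and PC above them.

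Below liver, the order of the other 4 tissues was set apart by the test for PCK2 alone in TPM as deposited. PCK2 means were 8.83 ± 2.18 TPM in sublingual gland (SD, n = 6), 8.50 ± 2.37 TPM in pancreas, 4.06 ± 2.63 TPM in submandibular gland and 2.73 ± 0.47 TPM in parotid. Sublingual gland and pancreas did not differ beyond their spread (0.06, limma adjusted p = 0.923), nor did parotid and submandibular gland (-0.33, adjusted p = 1). PCK2 was lower than in pancreas in parotid (log2 difference -1.32, SE 0.26, limma adjusted p = 0.000732, lower in 6 of 6 animals) and in submandibular gland (-0.99, adjusted p = 0.0126, lower in 5 of 6). It was lower than in sublingual gland in parotid (-1.38, adjusted p = 0.000357, 6 of 6 animals) and in submandibular gland (-1.05, adjusted p = 0.00483, 5 of 6). The animal that went the other way against pancreas was animal 4, whose submandibular library lacked salivary genes. In the same comparisons all genes tested had medians of -0.48, -0.33, -0.70 and -0.56. With trimmed-mean scaling none of the 4 differences of PCK2 passed (limma adjusted p = 0.0839, 0.193, 0.203 and 0.393), and with quantile normalisation that of parotid from pancreas alone did (-0.79, adjusted p = 0.0393). By the exact sign-flip test the differences of PCK2 in parotid had p = 0.03125 and those in submandibular gland p = 0.0625, which does not pass. Without animal 1, 3 or 5 the difference of submandibular gland from pancreas did not pass (adjusted p = 0.0823, 0.139 and 0.0968).

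So 1 of the 8 genes was called lower and 0 higher than in pancreas in parotid, where 13.6% of all genes tested were lower and 2.24% higher, and likewise in submandibular gland, where 7.46% were lower and 2.25% higher. With trimmed-mean scaling 0 were called in either, where 8.45% of all genes were lower and 8.92% higher in parotid and 7.82% and 8.25% in submandibular gland. Against sublingual gland 1 was called lower in parotid and 1 in submandibular gland, where 40.6% and 27.2% of all genes tested were called lower and 0.893% and 0.753% higher. With trimmed-mean scaling 1 was called there too, but it was PC, higher in both glands, where 8.43% and 6.46% of all genes were higher and 9.11% and 8.26% lower.

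In sublingual gland against pancreas 0 of the 8 were called in limma, where 10.4% of all genes tested were higher and 3.51% lower (11.4% and 9.97% with trimmed-mean scaling). In parotid against submandibular gland 0 were called, where 0.347% of all genes were in either direction. Without adjustment, 0 had a limma p below 0.05 in either pair, and by the exact sign-flip test 1 did in the former pair and 0 in the latter. Without animal 4, FBP1 was also lower than in pancreas in parotid (-0.95, limma adjusted p = 0.00897) and in submandibular gland (-1.05, adjusted p = 0.0036), and lower than in sublingual gland in parotid (-0.77, adjusted p = 0.0135) and in submandibular gland (-0.87, adjusted p = 0.00541). With all animals FBP1 in submandibular gland against pancreas missed the threshold (-0.89, adjusted p = 0.0523) and was lower in 6 of 6 animals. With trimmed-mean scaling that difference was -0.35, and FBP1 in parotid against pancreas, at -0.65 in TPM as deposited, was 0.08 (limma adjusted p = 0.589 and 0.929). The differences of FBP1 from sublingual gland with all animals, -0.44 in parotid and -0.69 in submandibular gland, did not pass (limma adjusted p = 0.216 and 0.0785), and trimmed-mean scaling turned them to 0.56 and 0.13.

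SLC2A2 stood below its level in pancreas in each gland of 6 of 6 animals, the log2 differences being -0.69 for parotid, -0.57 for the submandibular and -0.55 for the sublingual one. These compare values near the floor: 4 of 6 pancreas libraries and 0 gland libraries reached 1 TPM. The differences did not pass in limma (adjusted p = 0.0833, 0.202 and 0.209). The exact sign-flip permutation test of the within-animal differences gave p = 0.03125 for each, the smallest value 6 animals allow. In sublingual gland SLC2A2 passed after trimmed-mean scaling (limma adjusted p = 0.0472) and quantile normalisation (adjusted p = 0.0181). By the sign-flip test 4 of the 8 genes had p below 0.05 against pancreas in parotid, 2 in submandibular and 1 in sublingual gland. Those in parotid included PCK1 (log2 difference -0.90) and G6PC (-0.45), neither of which passed in limma (adjusted p = 0.208 and 0.388). The median share of the 15 hepatocyte markers was 0.931% in pancreas and 0.612, 0.646 and 0.765% in the glands. Against pancreas, the median log2 difference of all genes tested was -0.48 for parotid, -0.33 for the submandibular and 0.23 for the sublingual gland. G6PC in parotid, at -0.45, was close to that median. The share of all genes below 0.05 by the exact sign-flip test was not computed. The counts by that test are thus not read as setting the 8 genes apart from other genes. Within pancreas, SLC2A2 was highest in animal 3 (2.99 TPM), whose summed level of 14 islet genes was 132739 TPM, and lowest in animal 4 (0.626 TPM), where that sum was 454 TPM. The other 4 pancreas libraries had 0.860 to 1.58 TPM of SLC2A2 and islet sums of 7225 to 12735 TPM. The part of islet content in these values was not tested. G6PC2, the islet glucose-6-phosphatase, was listed at 0 in all 6 pancreas libraries, also in that of animal 3. The transcriptome behind the table is not given in the sources used here, so this 0 does not show whether the gene was expressed.

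PC and PCK1 are also expressed in fat cells, where they supply oxaloacetate and glycerol for fat synthesis. In animal 4 PC was at 115 TPM in pancreas and 129 TPM in submandibular gland, while the remaining 22 libraries outside liver held 5.61 to 30.8 TPM. The value of 30.8 TPM belonged to the pancreas of animal 3, which had the highest adipocyte sum of the 22, 1908 TPM. That library also had an islet sum of 132739 TPM, against 454 to 12735 TPM in the other 5 pancreas libraries. PCK1 was at 29.2 and 20.7 TPM in the pancreas and submandibular gland of animal 4, and its range over the 22 was 3.01 to 12.2 TPM. The adipocyte sum of those 22 ran from 9.45 to 1908 TPM. The parts of fat and islet content in the levels of PC and PCK1 were not tested. The other 6 genes did not share the rise in both libraries: PCK2 was highest of its 6 libraries in that submandibular gland alone (9.25 TPM), FBP1 was at 11.8 TPM in that pancreas, the lowest of the 6, and at 10.9 TPM in that submandibular gland, inside the range of the others.

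**Figure D4:**
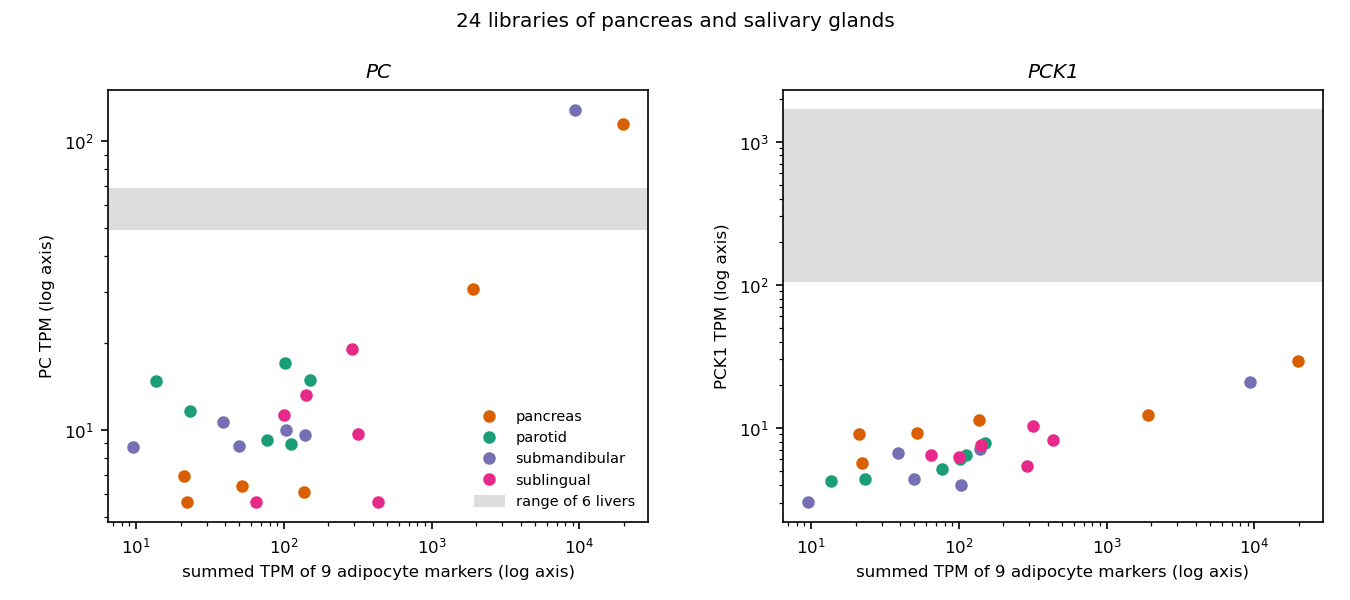
TPM of PC and PCK1 against the summed TPM of 9 adipocyte markers (both axes log) in the 24 libraries outside liver, 1 point per library, with the range of the 6 livers in grey. The pancreas and submandibular libraries of animal 4 lie at the far right, above the livers for PC (115 and 129 TPM) and below them for PCK1 (29.2 and 20.7 TPM).

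Within liver the 8 genes fell into a variable and a steady set. The highest liver exceeded the lowest 15.7-fold for PCK1, 10.5-fold for G6PC, 6.92-fold for PKLR, 6.13-fold for GYS2 and 3.98-fold for SLC2A2, but 1.62-fold for FBP1, 1.56-fold for PCK2 and 1.37-fold for PC. Of the 5283 genes whose liver mean was 10 TPM or more, with a median ratio of 2.33, 98% had a smaller ratio than PCK1, 96.6% a smaller one than G6PC and 5.81% a smaller one than PC. The 15 hepatocyte markers had ratios of 1.62 to 8.78 (median 2.70), the widest being that of TAT, an amino acid breakdown enzyme. Enzymes that act in gluconeogenesis thus stood at both ends of the range. PKLR and GYS2 were lower in the livers of animals 1, 3 and 4 than in those of animals 2, 5 and 6. So were all the hepatocyte markers except APOA1, APOA2, APOC3 and TTR, for example CPS1 at 41.9 to 136 TPM against 242 to 322 TPM. Mitochondrially encoded genes took 19.6 to 24.7% of the former livers' libraries and 10.5 to 17.0% of the latter. The part of library composition in these ranges was not tested.

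PCK1 and G6PC were high and low in the same livers. Over the 6 livers their log2 values had Pearson's r = 0.93 (exact permutation p = 0.00278, adjusted p = 0.0778 over the 28 pairs of the 8 genes) and Spearman's rho = 0.94 (exact p = 0.0167, adjusted p = 0.156). Without animals 4 and 6, the farthest from the median of PCK1, r was 0.86 over the 4 that were left. PC, for all its narrow range, had the same rank order as G6PC (rho = 1, exact p = 0.00278, adjusted p = 0.0778) with r = 0.83 (exact p = 0.0111, adjusted p = 0.156), and r = 0.96 without animals 4 and 6. PKLR and GYS2 had r = 0.84 (exact p = 0.075, adjusted p = 0.272) and rho = 0.77 (exact p = 0.103, adjusted p = 0.272). Of the 28 pairs, 0 passed after adjustment by either measure in these exact permutation tests, and 4 by r and 3 by rho had an exact p below 0.05 before it.

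IGFBP1, the insulin-repressed growth factor binding protein most like G6PC by the rule given further on, stood at 147 and 167 TPM in the livers of animals 4 and 6, while the other 4 had 1151 to 2296 TPM. IGFBP1 was picked for its likeness to G6PC over these same libraries, so the shared low livers restate that choice. SREBF1, a regulator of fat synthesis genes that insulin raises, was looked at after its values had been seen. The livers of animals 1 and 4 had 122 and 104 TPM of SREBF1, and the others 21.8 to 41.8 TPM. In the liver of animal 6 SREBF1 was at 28.8 TPM. No cause of these differences between livers was tested.

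**Figure D5:**
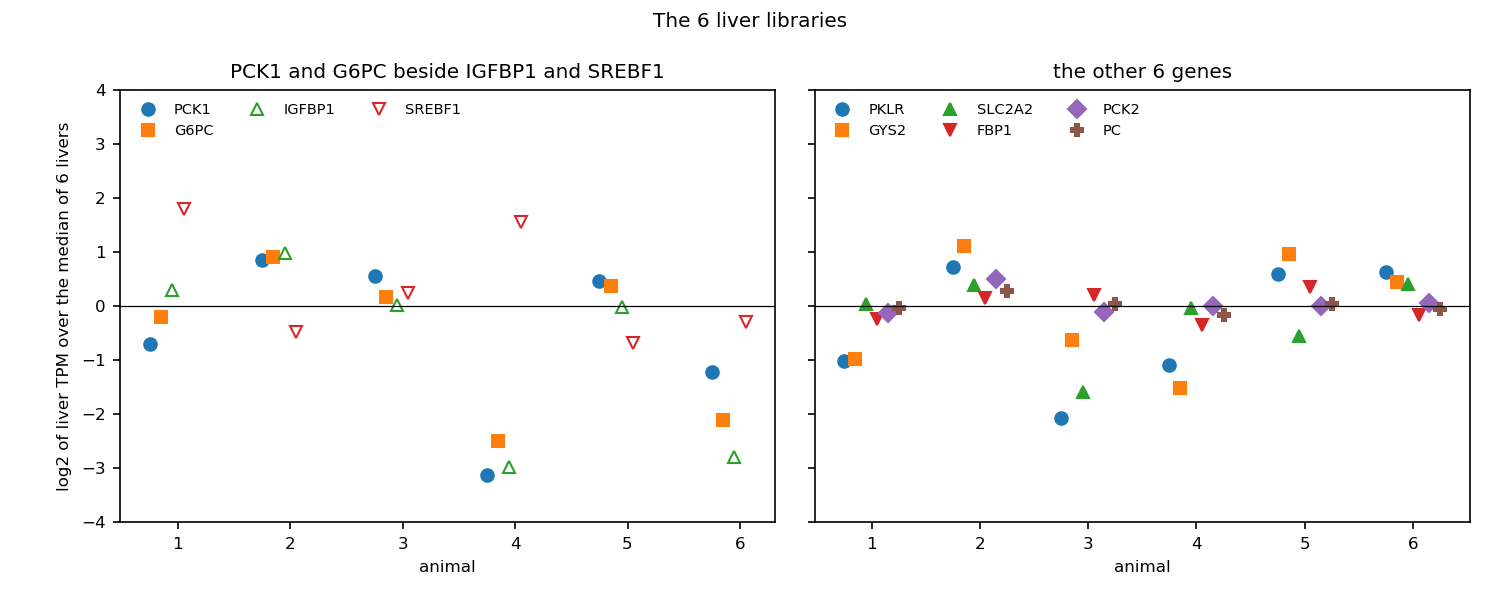
Log2 of the TPM in each liver over the median of the 6 livers, by animal, for PCK1 and G6PC with IGFBP1 and SREBF1 as open symbols (left) and for the other 6 genes (right). PCK1, G6PC and IGFBP1 are lowest in animals 4 and 6, SREBF1 is highest in animals 1 and 4, and FBP1, PCK2 and PC stay close to 0.

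Several members have a partner gene with the same reaction and another tissue range. GYS2 exceeded the muscle-type glycogen synthase GYS1 in 6 of 6 livers (GYS1 4.16 to 10.7 TPM), and GYS1 exceeded GYS2 in 6 of 6 animals in each other tissue. PKLR likewise exceeded the pyruvate kinase PKM in 6 of 6 livers (PKM 7.73 to 18.1 TPM), and PKM exceeded PKLR in 6 of 6 animals in each other tissue. SLC2A2 exceeded SLC2A1, the widespread transporter GLUT1, in 6 of 6 livers (SLC2A1 1.19 to 4.74 TPM), in 3 of 6 pancreas libraries and in no gland library. Within an animal, the order of partners thus flipped between liver and gland for glycogen synthase, pyruvate kinase and the glucose transporter. The partner itself did not rise in each case. GYS1 had a median of 7.55 TPM over the livers and lower medians in the glands, from 1.28 to 3.47 TPM. For SLC2A1 the liver median was 3.55 TPM, above parotid (1.39) and submandibular (2.66) but below sublingual gland (6.80). Only PKM had a higher median in every gland, 29.8 to 76.9 TPM against 11.1 TPM in liver. The order of the phosphatases described next flipped too. In the glands GYS2, PKLR and SLC2A2 stood close to the traces of the hepatocyte markers.

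G6PC exceeded G6PC3, the widespread phosphatase, in 6 of 6 livers (G6PC3 5.57 to 9.17 TPM), and G6PC3 exceeded G6PC in 6 of 6 animals in every other tissue. FBP1 exceeded FBP2, the muscle-type bisphosphatase, in 6 of 6 livers and in 6 of 6 submandibular and sublingual libraries each. It did so in 5 of 6 pancreas and 4 of 6 parotid libraries. FBP2 reached 255 TPM, GYS1 62.5 TPM and PKM 1225 TPM in the parotid of animal 6, against medians over the 6 parotid libraries of 0.513, 1.78 and 29.8 TPM. That library had the highest skeletal muscle marker sum, and its part in these values was not tested. These orders are within single animals and were not tested further.

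The wider pathway was described with 104 other genes in 5 lists, of which 103 had a row and 101 were tested. The lists were chosen with earlier results of these data known, so the counts describe the lists and do not test the pathway. Of those 101, 40 (39.6%) were higher in liver than in all 4 other tissues, where 15.5% of all genes tested were, and 1 was lower in all 4, where 1.33% of all genes were. With trimmed-mean scaling these were 38 and 4, against 14.9% and 6.05% of all genes. By list, 14 of 22 genes of hormonal and transcriptional control were higher in liver than in all 4 tissues. So were 8 of 18 for sugar, lactate and glycerol entry, 8 of 19 for glycogen metabolism, 7 of 22 for other irreversible steps and 3 of 20 for the shared steps of glycolysis and gluconeogenesis. Against pancreas alone the numbers higher and lower in these lists were 16 and 0, 10 and 1, 11 and 0, 8 and 2, and 7 and 1, where 23.6% of all genes tested were higher and 6.76% lower. With trimmed-mean scaling they were 15 and 0, 8 and 2, 10 and 1, 8 and 5, and 7 and 1, where 21.6% and 15.2% of all genes were. The medians of their log2 differences from pancreas were 1.79, 0.94, 1.60, 0.49 and 0.92, where that of all genes was 0.36.

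Among the shared steps, GPT, the alanine aminotransferase that feeds alanine into the pathway, stood at 162 TPM in liver and 1.33 to 17.2 TPM elsewhere. In TPM as deposited LDHB, a lactate dehydrogenase subunit, was the 1 gene of the lists lower in liver than in all 4 tissues. It stood at 11.8 TPM against 60.1 to 146 TPM, with log2 differences of -2.24 to -3.37 (SE 0.49, limma adjusted p of at most 0.000427). With trimmed-mean scaling GPT and LDHB were called in the same direction against all 4 tissues. PKM, G6PC3 and the phosphorylase PYGB were then also called lower in liver than in all 4.

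Among the other irreversible steps, GCKR, a regulatory protein of hepatocytes, stood at 109 TPM in liver and 0.544 to 1.13 TPM elsewhere. PFKFB1, which sets fructose-2,6-bisphosphate in liver, stood at 58.4 TPM against 0.534 to 8.99 TPM. In glycogen metabolism the liver phosphorylase PYGL stood at 65.1 TPM against 2.03 to 11.9 TPM, and PPP1R3G, which directs a phosphatase to glycogen, at 37.2 TPM against 0.232 to 6.61 TPM. These 4 genes were called higher in liver in all 4 comparisons (limma adjusted p of at most 0.0024).

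Of the genes for entry of other substrates, AQP9, the glycerol channel of hepatocytes, stood at 136 TPM in liver and 0.809 to 1.21 TPM elsewhere, and KHK, fructokinase, at 464 TPM against 6.999 to 11.98 TPM. Of the control genes, GCGR, the glucagon receptor, stood at 94.9 TPM in liver against 0.539 to 1.77 TPM, and CREB3L3, a transcription factor of the fasted liver, at 127 TPM against 0.635 to 0.911 TPM. The log2 differences of CREB3L3, 6.04 to 6.26 (SE 0.20), were of the size of those of PCK1.

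The genes whose levels ran most like each member were ranked by Pearson's r of log2(TPM + 1) among 6223 named genes that averaged 10 TPM or more in some tissue. These are descriptions over 30 libraries that share animals and tissues. KMO, a tryptophan breakdown enzyme, was most like PCK1 (r = 0.99), IGFBP1 most like G6PC (0.99), AQP9 most like PKLR (0.995), CPN2 most like GYS2 (0.996), NR1H4, the bile acid receptor, most like SLC2A2 (0.99), GSTZ1 most like PCK2 (0.98) and TTC36 most like FBP1 (0.98). PC was most like SCARB1, the HDL receptor, with a lower r of 0.95. SCARB1 means were 43.2 TPM in liver, 29.9 TPM in pancreas and 24.7 TPM in submandibular gland, against 4.80 and 5.497 TPM in parotid and sublingual gland. Those of PC were 57.1, 28.4, 29.4, 12.7 and 10.7 TPM in the same order of tissues, and without animal 4 its means in pancreas and submandibular gland were 11.2 and 9.54 TPM.

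Each tissue's mean was then subtracted, which leaves the differences between libraries of the same tissue, those of piece composition included. KMO was still the closest to PCK1 (r = 0.92) and IGFBP1 to G6PC (0.90). PCK1 itself was in the third place for G6PC (0.77). GLDC was closest to PKLR (0.95) and UGT3A1 to GYS2 (0.96). PHGDH, the first enzyme of serine synthesis, was closest to PCK2 (0.74), SLC15A2 to FBP1 (0.88) and TINAGL1 to PC (0.96). For PC these values rest largely on the pancreas and submandibular libraries of animal 4. For G6PC, PKLR and GYS2 they rest largely on the 6 livers. There the SD of log2(TPM + 1) was 1.38, 1.15 and 1.04, against at most 0.37, 0.25 and 0.15 in any other tissue.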

How the data were processed

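RNA was sequenced from 5 tissues of 6 rhesus macaques with paired reads, per the labels' protocols. The deposited table holds TPM, per gene name and library, made by the authors with kallisto (per its name and the submitters' processing notes). Version, transcriptome, genome build and the way transcripts were summed are not given in the sources used here, so coordinates are not printed. All columns sum to the same total, so depth is unknown and no count test was used. How reads were divided between related genes (PCK1 and PCK2, PKLR and PKM) is not stated either. RefSeq's genes of T2T-MMU8v2.0 hold 7 of the 8 symbols, and G6PC was used as the file names it.

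The differences between tissues were fitted on log2(TPM + 1) by limma 3.58.1 under R 4.3.3, a scale that understates changes of low genes. Tissue and animal (as a block) were terms, all 30 libraries entered, and the variance trend was used. A gene was tested if 6 or more libraries held 1 TPM or more of it, which left 13550, and two-sided p-values were adjusted by the Benjamini-Hochberg method over all of them, with a threshold of 0.05. Animal was a block because the tissues come from the same animals: deviations from the tissue means correlated at 0.161 within animals and -0.0186 between them. The exact sign-flip test used 64 sign patterns of the within-animal differences, two-sided. Trimmed-mean factors trimmed 30% of log ratios and 5% of levels at each end. Python 3.11.15 made the summaries. In simulated data for liver against pancreas with 13550 genes, 82.7% of changes of 2 and 96.1% of changes of 3 (log2) were recovered.

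The members and lists were chosen with earlier results of these data known. Of the pathway lists, the text names at most 2 genes a list and direction, those with the largest difference from pancreas among genes called against all 4 tissues. A few genes that these rules would name are not reported here. Partner genes of the members, SREBF1 and PYGB were named outside that rule, after their values had been seen. Genes like a member are the closest by r among genes without LOC identifiers. Alternatives were the exact sign-flip test, no animal block, the 12 libraries of a pair alone, trimmed-mean scaling, quantile normalisation, no filter, a filter of 5 TPM, a pseudocount of 0.1, no trend, leaving out each animal, and leaving out the pancreas and submandibular libraries of animal 4 with the parotid of animal 6.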

Additional observations from a re-analysis of the deposited data

Results flagged for a closer look

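Of 40 sets of 6 libraries (8 genes in 5 tissues), 3 held a library far from the rest, by a gap to the nearest that took most of the range of log2 values (Dixon's criterion at 95%), and chance gives about 2. In the submandibular gland PC was at 129 TPM in animal 4 and between 8.74 and 10.6 TPM in the others, and the adipocyte marker sum of that library was 9395 TPM. PCK2 in the liver of animal 2 was at 269 TPM, against 173 to 198 TPM. GYS2 in the pancreas of animal 5 was at 0.648 TPM, against 0.263 to 0.358 TPM, all of them below 1 TPM. In 80 comparisons of the sexes (8 genes in 10 tissue pairs), the 4 females and 2 males did not all move in opposite directions in any (0 of 80).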

How the results depend on the processing

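In the 4 comparisons of liver 8 genes were called under every alternative limma fit except quantile normalisation, where PC was lost against parotid and submandibular gland. The exact sign-flip test lost PC against pancreas and submandibular gland, leaving 7 in each, and PCK2 in submandibular gland against pancreas and sublingual gland. Of 688 values of single genes under alternatives, 648 kept direction and side of the threshold, 17 lost the call, 18 gained one and 5 changed sign. Those 5 were FBP1, uncalled in each: 0.079 in parotid against pancreas with trimmed-mean scaling, and, with trimmed-mean scaling and quantile normalisation, 0.56 and 0.63 in parotid and 0.13 and 0.19 in submandibular gland against sublingual gland. Without the replicate block all 43 single-gene results kept their call. For parotid against pancreas 1 gene was called, and 0 with trimmed-mean scaling, 2 with a pseudocount of 0.1 and 1 to 2 when 1 animal was left out. For submandibular gland against pancreas 1 was called, 0 with trimmed-mean scaling or quantile normalisation, and 2 (PCK2 and FBP1) with the 12 libraries alone, no filter, a filter of 5 TPM, a pseudocount of 0.1, no trend or without the 3 libraries that stood apart. Leaving out 1 animal gave 0 (without animal 1, 3 or 5) to 2 (without animal 4). For sublingual gland against pancreas 0 were called, and 1 (SLC2A2) with either scaling. Against sublingual gland, parotid had 1 call and 1 to 2 when an animal was left out, and submandibular gland had 1, with 0 in the 12 libraries alone, 2 without the 3 libraries and 1 to 2 when an animal was left out. The 1 call was PCK2 in TPM as deposited and PC under both scalings. The causes were not tested. Depth is unknown, so the counting error of levels below 1 TPM could not be estimated.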
